A study of Homo sapiens with 28 samples.

Results

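The 2 small interfering RNAs (siRNAs) that the study used against PERK were compared with each other in tunicamycin-treated LNCaP, an established line from a metastatic human prostate cancer. The comparison holds 8 of the 28 libraries of the series, chosen by their labels alone: 4 labelled TM siPERK-1 and 4 labelled TM siPERK-3. All 8 cultures were transfected with 1 of the PERK siRNAs and received tunicamycin (TM) at 2.5 µg/mL for 18 h. The sample titles number the siRNAs 1 and 3, while the treatment labels call them oligo 1 and oligo 2; the titles' numbers are used here. The reference for the direction of a change was TM siCtrl, 4 libraries with a non-targeting siRNA and the same tunicamycin dose. The other groups, each of 4 libraries, were DMSO siCtrl (control siRNA without tunicamycin), TM PERKi siCtrl (control siRNA with tunicamycin and 100 nM of the PERK inhibitor GSK2606414), and TM siATF4-2 and TM siATF4-3 (either of the siRNAs against ATF4 with tunicamycin). No group received a PERK siRNA without tunicamycin, so a difference between the siRNAs cannot be told apart from a difference in how they modify the tunicamycin response. The 4 libraries of a group came from independent experiments, per the series' design text.

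PERK, encoded by EIF2AK3, is an endoplasmic reticulum (ER) membrane kinase that senses misfolded proteins. It phosphorylates the translation factor eIF2 alpha, which slows protein synthesis and favours translation of the transcription factor ATF4. Tunicamycin blocks N-linked glycosylation and so causes ER stress. An siRNA guides the RNA-induced silencing complex to its target messenger, and can also lower other messengers through partial pairing, so that studies commonly use more than 1 siRNA per target.

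Library totals were 13253835 to 16789370 counts with siPERK-1 and 12251524 to 12606231 with siPERK-3, so that the groups did not overlap in depth. The part of this depth gap in the results was not tested. All 13 luminal prostate markers were detected, with summed levels of 5387 to 5662 CPM (counts scaled to a common library size, with TMM factors) with siPERK-1 and 5323 to 5705 with siPERK-3. Markers of leukocytes summed to 5.97 to 8.88 CPM with siPERK-1 and 6.71 to 8.38 with siPERK-3, and 4 of the 11 were at 0 in all 8 libraries. The 16 fibroblast and mesenchymal markers summed to 199.9 to 277 CPM with siPERK-1 and 172 to 209 with siPERK-3, with 5 of them at 0 in all 8 libraries. In a principal component analysis of the 8 libraries, the first component (28% of the variance) separated the siRNAs, and the second (23.5%) separated replicate 4 of both groups from the other 6 libraries.

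Both siRNAs lowered their target, and the difference between them did not pass the test. EIF2AK3 (hg19 chr2:88856259-88927094, minus strand) was at 23.0, 30.5, 21.4 and 23.6 CPM in the siPERK-1 libraries and at 19.97, 21.9, 19.7 and 24.3 CPM in the siPERK-3 libraries. TM siCtrl stood at 89.2 ± 6.51 CPM (SD, n = 4) and DMSO siCtrl at 30.2 ± 0.742. The siPERK groups overlapped, and every library of both lay below every TM siCtrl library. The log2 change against TM siCtrl was -1.86 ± 0.07 (SE) with siPERK-1 and -2.05 ± 0.07 with siPERK-3, with adjusted p = 2.99e-22 and 3.14e-23 in edgeR's quasi-likelihood test. The direct difference, siPERK-1 minus siPERK-3, was 0.20 ± 0.08 on the log2 scale (adjusted p = 0.195). Without replicate 2 of siPERK-1, its highest library, the difference was 0.08 (adjusted p = 0.723). Exons of EIF2AK3 overlap LOC101928371 in the annotation, and whether the counting used strand is not given in the sources used here.

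Of the genes downstream of PERK, none of the 3 always reported passed the test between the siRNAs. ATF4 was at 1412, 1424, 1461 and 1363 CPM with siPERK-1 and at 1111, 1190, 1198 and 1134 CPM with siPERK-3. The groups did not overlap, yet the fit over all 28 libraries gave 0.29 ± 0.15 with adjusted p = 0.337. Fitted on the 8 siPERK libraries alone, the same log2 difference had adjusted p = 6.71e-05, so that the call rests on which libraries set the spread. ATF4 varied more within the ATF4 siRNA groups, from 177 to 358 CPM in TM siATF4-2. DDIT3, which encodes the stress transcription factor CHOP, stood at 334 ± 32.4 CPM with siPERK-1 and 346 ± 46.5 with siPERK-3 (log2 difference -0.05, adjusted p = 0.907). It overlaps MARS in the annotation, so its counts are uncertain. FAM129A stood at 127 ± 14.6 and 118 ± 19.3 CPM (log2 difference 0.11, adjusted p = 0.822). Among 32 tested members of a list of ATF4 and CHOP targets, edgeR, DESeq2 and limma-voom each called 0, with a median log2 difference of 0.03 against 0.00 over all genes. At an unadjusted p under 0.05 there were 4 higher and 2 lower, and with only the siPERK groups fitted 4 were called higher. In 2 of 16 alternatives 1 was called lower. The shares of all genes at these settings are not given here, so these counts are a description only.

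**Figure D1:**
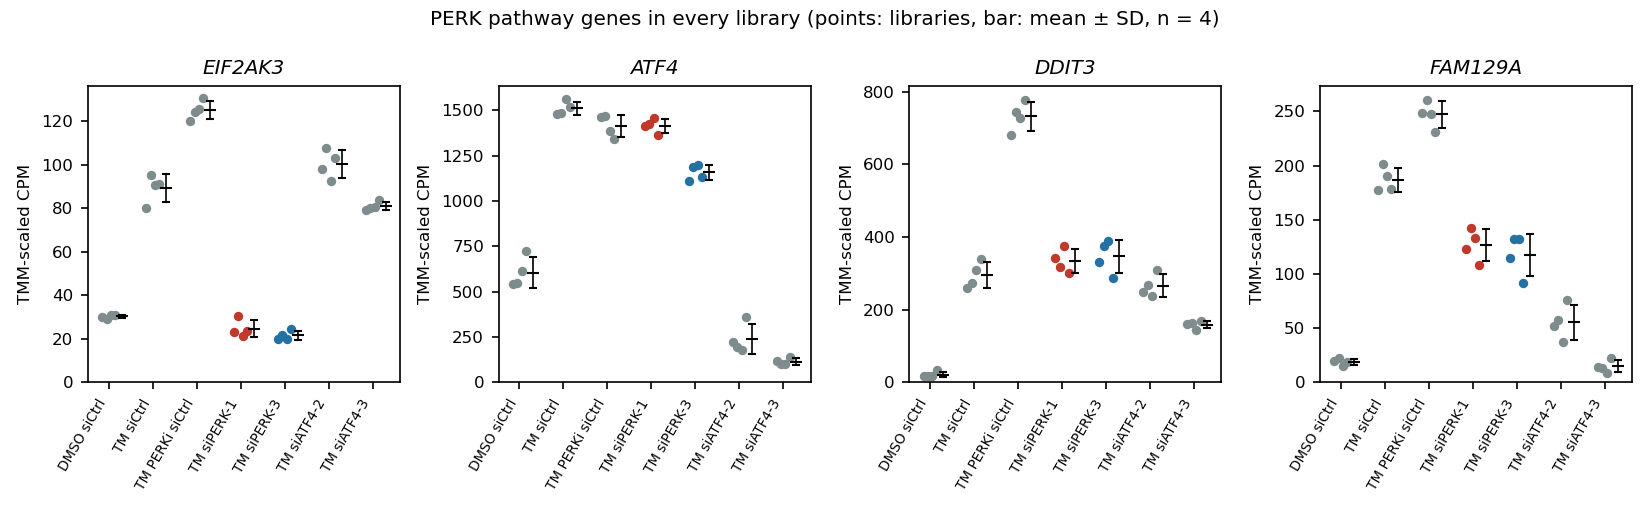
TMM-scaled CPM of EIF2AK3, ATF4, DDIT3 and FAM129A in each library of the 7 groups (points), with mean ± SD of 4 libraries (bars). EIF2AK3 is low in both siPERK groups, at means of 24.6 and 21.5 CPM, and the ATF4 points of siPERK-3 lie below those of siPERK-1.

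Across the transcriptome the siRNAs differed at 677 of 14314 tested genes (4.73% called, adjusted p under 0.05). With siPERK-1, 321 genes were higher (2.24%) and 356 lower (2.49%) than with siPERK-3. Most differences were small: the median size among called genes was 0.30 on the log2 scale for the higher and 0.29 for the lower. At least a 2-fold difference was seen in 19 of the higher and 3 of the lower genes. Of these, SYP (1.39), AKR1C2 (1.29), ZMYM6NB (1.26), BLOC1S6 (-1.34) and CD164 (-1.17) had no overlap and a mean log2 CPM of at least 1. The rest had a lower level, overlapping groups or a placeholder or non-coding symbol. The libraries of the groups did not overlap in 273 of the higher and 296 of the lower genes, against 1495 of all genes tested (10.4%). With upper-quartile scaling the split was 406 higher and 269 lower. With the replicate number as a block, 550 were higher (3.84%) and 645 lower (4.51%). Leaving out replicate 3 of siPERK-1 gave 205 higher and 211 lower, leaving out replicate 1 of siPERK-3 gave 180 and 212, and leaving out replicate 1 of siPERK-1 gave 224 lower. For scale, siPERK-1 differed from TM siCtrl at 3782 genes (26.4%) and siPERK-3 at 3833 (26.8%), both against the same control libraries. The mean of TM siCtrl lay between the siRNAs' means for 172 of the 321 higher and 171 of the 356 lower genes.

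**Figure D2:**
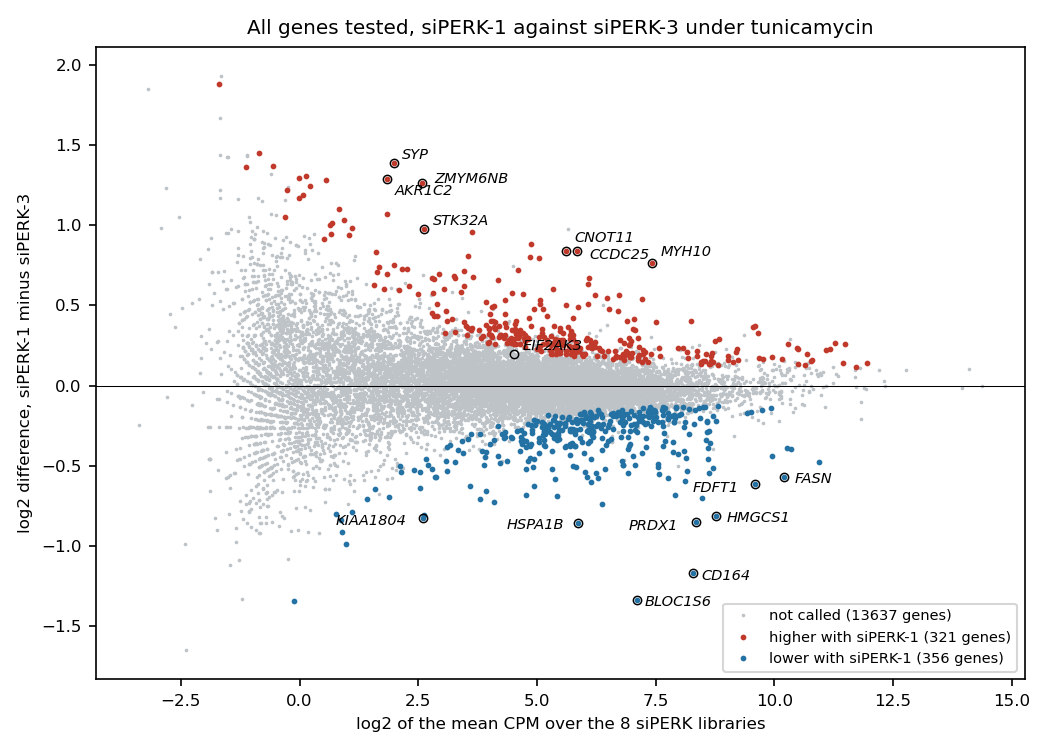
Log2 difference between the siRNAs (vertical axis) against the log2 mean CPM over the 8 libraries (horizontal axis) for every gene tested, with called genes in colour. BLOC1S6 (-1.34) and CD164 (-1.17) are the lowest labelled points and SYP (1.39) the highest, while EIF2AK3 (0.20) lies among the genes that were not called.

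Among the named genes, BLOC1S6 and CD164 lay furthest below their siPERK-3 level with siPERK-1. BLOC1S6 (hg19 chr15:45879417-45901909, plus strand), a subunit of the BLOC-1 complex of lysosome-related organelle biogenesis, was at 70.6, 82.8, 74.7 and 83.9 CPM with siPERK-1. With siPERK-3 it was at 193, 201, 194 and 199 CPM, and TM siCtrl stood at 185 ± 16.8. The siPERK-1 libraries lay far below all others; the direct log2 difference was -1.34 ± 0.06 (adjusted p = 1.41e-20). Against TM siCtrl, BLOC1S6 changed by -1.24 with siPERK-1 (adjusted p = 5.38e-20) and by 0.09 with siPERK-3 (adjusted p = 0.219).

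CD164 (hg19 chr6:109687717-109703762, minus strand), a sialomucin of the cell surface and endosomes, was at 176, 225, 176 and 192 CPM with siPERK-1 and at 439, 439, 422 and 430 CPM with siPERK-3. Its direct log2 difference was -1.17 ± 0.05 (adjusted p = 1.91e-19), and TM siCtrl stood at 482 ± 9.83 CPM. CD164 was also low with 1 of the ATF4 siRNAs, at 202 ± 10.7 CPM in TM siATF4-3 against 365 ± 15.9 in TM siATF4-2. SLC39A6, a zinc importer, was at 273 ± 12.3 CPM with siPERK-1 and 443 ± 19.9 with siPERK-3 (-0.70 ± 0.04, adjusted p = 6.31e-16). CYTH3, an exchange factor for ARF GTPases, was at 61.9 ± 3.95 and 104 ± 3.15 CPM (-0.74 ± 0.05, adjusted p = 3.64e-15). The peroxidase PRDX1 differed on both sides of the control: its log2 change against TM siCtrl was -0.41 with siPERK-1 and 0.44 with siPERK-3, and both passed the test. PRDX1 shares exonic sequence with MMACHC in the annotation, so its counts are uncertain.

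In the other direction, several genes were lower with siPERK-3 than in every library of the other 6 groups. MYH10 (hg19 chr17:8377523-8534079, minus strand), a non-muscle myosin heavy chain, was at 215, 221, 206 and 229 CPM with siPERK-1 and at 127, 123, 126 and 136 CPM with siPERK-3. TM siCtrl stood at 222 ± 9.83 CPM, within the siPERK-1 range, and the direct difference was 0.77 ± 0.05 (adjusted p = 1.09e-15). CNOT11, a subunit of the CCR4-NOT deadenylase, was at 62.7 ± 2.12 CPM with siPERK-1 and 34.96 ± 2.72 with siPERK-3 (0.84 ± 0.06, adjusted p = 1.01e-12). Its lowest library outside the PERK siRNA groups was an ATF4 siRNA library at 38.25 CPM, just above the highest siPERK-3 library (37.98 CPM). CCDC25 differed by 0.84, ZNF385A by 0.88 and PLEKHA1 by 0.80, and for these 3 genes the change of siPERK-1 against TM siCtrl did not pass the test.

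Among proliferation genes, FOXM1 and NRAS were also lower with siPERK-3 than in every other library. The transcription factor FOXM1 was at 83.7 ± 6.38 CPM with siPERK-1 and 52.6 ± 2.5 with siPERK-3 (0.67 ± 0.07, adjusted p = 2.51e-09). FOXM1 overlaps LOC100507424 in the annotation, so its counts are uncertain. The RAS GTPase gene NRAS stood at 127 ± 4.11 and 85.7 ± 2.14 CPM (0.56 ± 0.05, adjusted p = 2.88e-11). TM siCtrl stood between the siRNAs' means, at 70.7 ± 4.82 CPM for FOXM1 and 113 ± 6.66 for NRAS. Against it, FOXM1 changed by 0.24 with siPERK-1 and -0.43 with siPERK-3, and NRAS by 0.16 and -0.40. Each of these changes passed the test. FOXM1 was the single called gene of 34 mitotic genes (against 2.24% of all genes called higher), too few to describe the list. Of 37 DNA replication genes, edgeR, DESeq2 and limma-voom called 0. At an unadjusted p under 0.05 there was 1 lower, and 1 was called lower with the replicate block or without replicate 1 of siPERK-3. The median log2 difference of the list was 0.08, with 32 of the 37 members above 0 (50% of all genes). Against TM siCtrl, 14 members were called higher with siPERK-1 and 7 with siPERK-3 (13.1% of all genes in each). In each comparison 1 was called lower (against 13.3% and 13.7% of all genes).

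A few genes were higher with siPERK-1 than in any other library. SYP, which encodes the synaptic vesicle protein synaptophysin, was at 5.91, 4.17, 7.14 and 5.64 CPM with siPERK-1 and at 2.03, 2.72, 2.32 and 1.63 CPM with siPERK-3. TM siCtrl stood at 2.61 ± 0.627 CPM, and the direct difference was 1.39 ± 0.21 (adjusted p = 1.24e-05). SYP was the single gene called among 6 tested neuroendocrine markers (against 2.24% of all genes called higher), too few to describe the list. It overlaps SYP-AS1 in the annotation. HPGD, a prostaglandin-degrading enzyme, was also higher with siPERK-1, at 14.9 ± 1.22 against 8.49 ± 0.957 CPM (0.81 ± 0.12, adjusted p = 2.54e-05), but below the 22.0 ± 3.67 CPM of DMSO siCtrl.

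To count these patterns, genes were taken whose 4 libraries of 1 siRNA lay outside all 24 other libraries of the series, a grouping chosen after the values were seen. With siPERK-1 below all others there were 49 such genes (0.342% of those tested), of which 41 were called between the siRNAs. With siPERK-3 below all others there were 36 (0.252%), of which 28 were called. With siPERK-1 above all others there were 20 (0.14%), 12 of them called. With siPERK-3 above all others there were 40 (0.279%), 26 of them called, and 13 of these 26 were members of the cholesterol list described next. Since the grouping uses the same libraries as the test, these counts are a description. Matches between these messengers and the siRNAs were not analysed here.

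**Figure D3:**
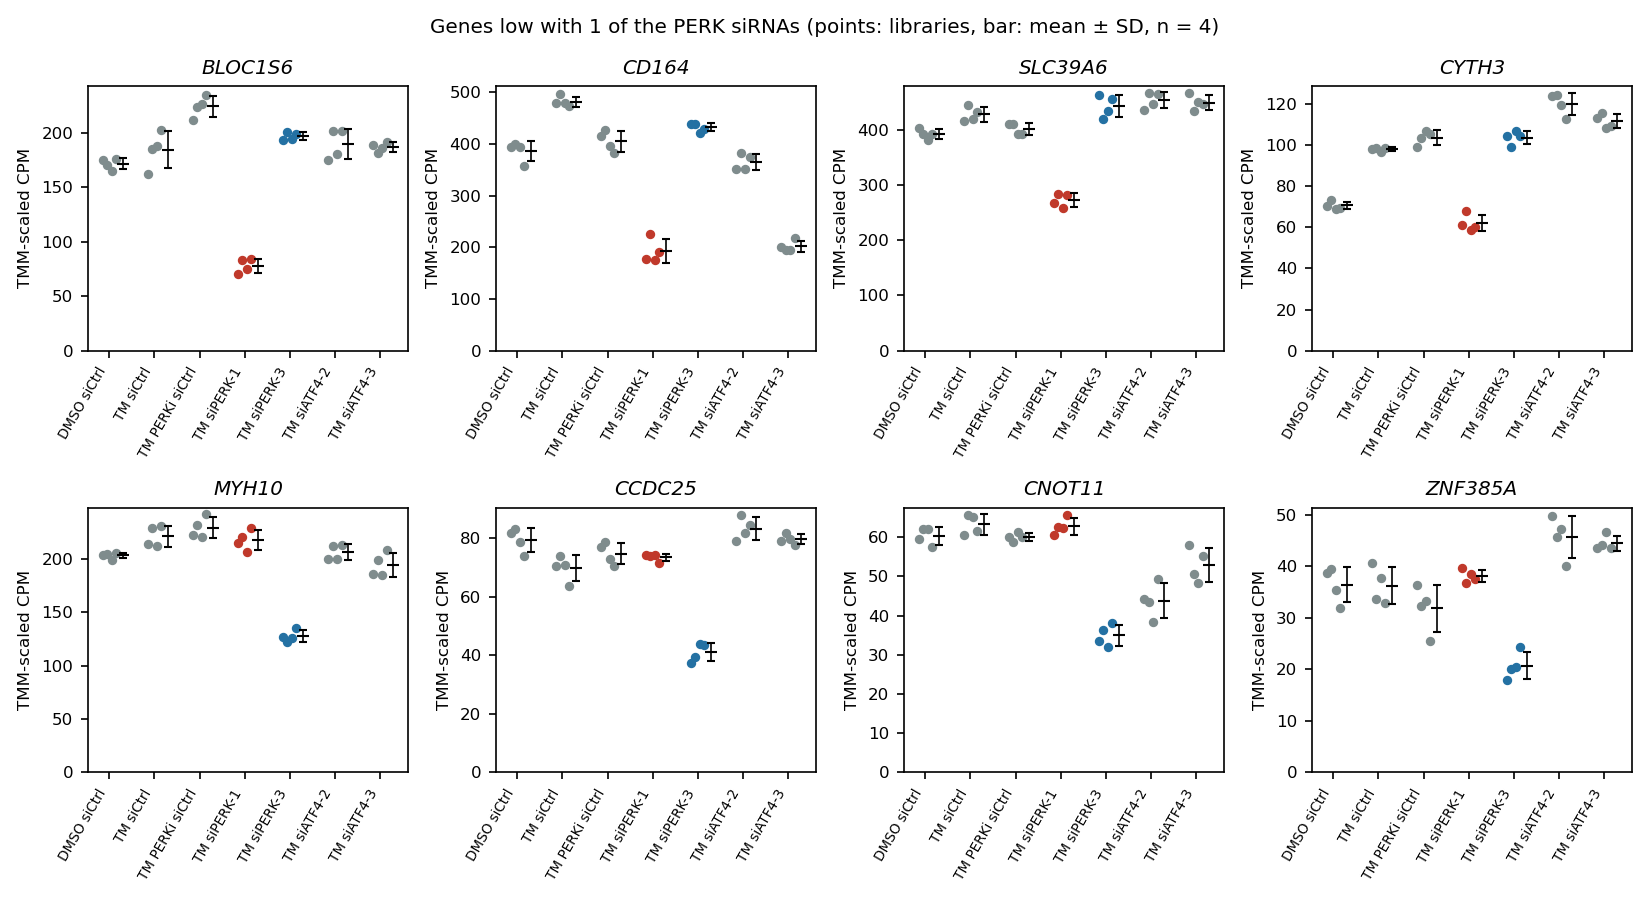
TMM-scaled CPM of 8 genes in each library of the 7 groups (points), with mean ± SD of 4 libraries (bars). In the upper row the siPERK-1 libraries are low (BLOC1S6 mean 78.0 CPM against 197 with siPERK-3), and in the lower row the siPERK-3 libraries are low (MYH10 mean 128 CPM against 218 with siPERK-1).

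Genes of cholesterol synthesis and uptake formed the list with the most called members. These genes are controlled by SREBP transcription factors, which are held in the ER by INSIG proteins when sterol is plentiful and are cut by the site-1 and site-2 proteases in the Golgi when it is not. Of 27 tested members, 19 were lower with siPERK-1 than with siPERK-3 and 0 higher, against 2.49% and 2.24% of all genes, and the median log2 difference was -0.33. The called members span the pathway from HMGCS1 (-0.81) through FDPS (-0.51), FDFT1 (-0.61) and SQLE (-0.38) to DHCR7 (-0.43), with the factor SREBF2 (-0.22). For 18 of the 19 the libraries of the siRNAs did not overlap, as for 296 of the 356 lower genes overall.

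HMGCS1, the HMG-CoA synthase of the pathway (hg19 chr5:43287572-43313614, minus strand), was at 301, 286, 306 and 383 CPM with siPERK-1. With siPERK-3 it was at 607, 487, 551 and 598 CPM, and the direct difference was -0.81 ± 0.11 (adjusted p = 4.64e-05). Both groups lay above TM siCtrl (203 ± 16.9 CPM): the log2 change against it was 0.65 with siPERK-1 and 1.47 with siPERK-3, and both passed the test. FDFT1, squalene synthase, was at 615 ± 38.3 CPM with siPERK-1, 939 ± 50.8 with siPERK-3 and 365 ± 34.9 in TM siCtrl (direct -0.61 ± 0.08, adjusted p = 3e-05). INSIG1 was at 233 ± 15.6, 337 ± 15.5 and 125 ± 23.3 CPM in the same order. Its direct difference of -0.53 had adjusted p = 0.0444 and lost the call in 11 of 16 alternatives. Over the list, the median change against TM siCtrl was 0.47 with siPERK-1 and 0.79 with siPERK-3. Called higher were 21 and 22 members (13.1% of all genes in each comparison), and 1 was called lower in each (13.3% and 13.7% of all genes).

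**Figure D4:**
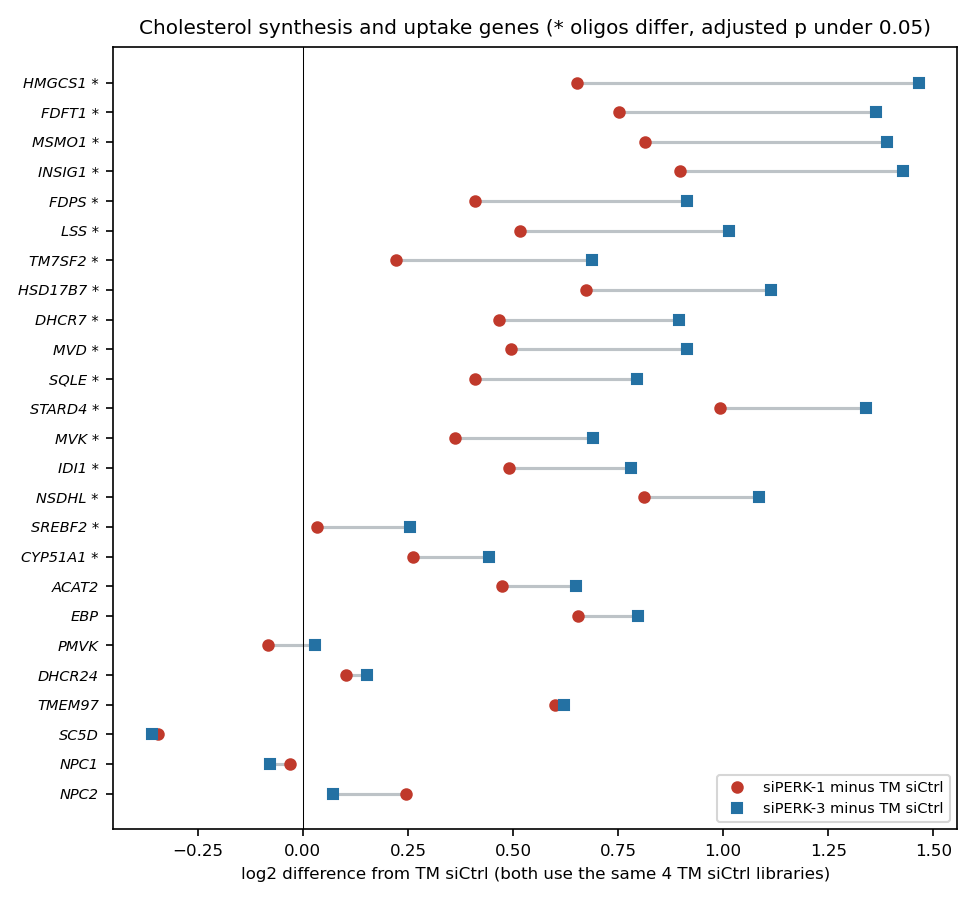
Log2 difference from TM siCtrl of 25 of the 27 tested cholesterol genes with siPERK-1 (circles) and siPERK-3 (squares), joined by a line; both use the same control libraries. For the 17 genes with an asterisk the siRNAs differ, and the square lies to the right of the circle, as for HMGCS1 at 0.65 and 1.47.

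Promoters of these genes are shown because the members moved together. Many sterol genes are known to need the CCAAT-binding factor NF-Y beside SREBP. RefSeq windows (GRCh38.p14) from 250 bases before to 50 after the gene start were found for 21 of the 27 genes, using the first window listed for each gene. The letters CCAAT, on either strand, were in 17 of the 21 windows (81.0%), against 35.7% of all 27305 windows and 36.7% of the windows of tested genes. The sterol regulatory element TCACNCCAC, on either strand, was in 1 of the 21 windows, that of SREBF2, against 1.15% of all windows. The windows of 3 of the 4 members with the largest difference are given 5′ to 3′ on the gene's strand, with CCAAT or its reverse complement ATTGG in capitals. That of HMGCS1 is chr5:43313363-43313662 (minus strand, 2 matches), that of MSMO1 is chr4:165327419-165327718 (plus strand, 4 matches) and that of INSIG1 is chr7:155297628-155297927 (plus strand, 1 match). The sterol element was not found in these windows, and a match is a description of the letters only.
HMGCS1: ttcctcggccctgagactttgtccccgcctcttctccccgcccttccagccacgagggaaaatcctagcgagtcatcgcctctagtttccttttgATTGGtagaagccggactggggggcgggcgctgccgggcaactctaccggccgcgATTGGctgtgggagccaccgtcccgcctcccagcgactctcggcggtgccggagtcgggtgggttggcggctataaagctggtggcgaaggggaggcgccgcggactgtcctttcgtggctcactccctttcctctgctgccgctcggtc
MSMO1: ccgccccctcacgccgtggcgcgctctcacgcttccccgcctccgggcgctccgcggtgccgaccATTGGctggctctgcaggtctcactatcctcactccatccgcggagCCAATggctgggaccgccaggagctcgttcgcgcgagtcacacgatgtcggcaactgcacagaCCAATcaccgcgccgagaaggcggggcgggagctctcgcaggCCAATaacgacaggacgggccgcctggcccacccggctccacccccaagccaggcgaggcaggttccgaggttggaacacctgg
INSIG1: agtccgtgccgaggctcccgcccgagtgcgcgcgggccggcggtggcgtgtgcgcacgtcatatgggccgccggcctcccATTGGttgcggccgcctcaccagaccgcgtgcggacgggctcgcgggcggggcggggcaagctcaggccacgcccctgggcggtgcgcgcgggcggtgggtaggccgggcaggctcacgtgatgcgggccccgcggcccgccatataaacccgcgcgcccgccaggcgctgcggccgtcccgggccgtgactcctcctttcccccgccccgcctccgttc

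Fatty acid and triglyceride synthesis genes, many of them also SREBP targets, had 8 of 22 tested members lower with siPERK-1 (against 2.49% of all genes), 0 higher, and a median of -0.17. FASN, the fatty acid synthase, was at 939, 884, 868 and 1132 CPM with siPERK-1 and at 1468, 1265, 1289 and 1655 CPM with siPERK-3 (-0.57 ± 0.13, adjusted p = 0.0109). TM siCtrl stood at 496 ± 63.5 CPM and DMSO siCtrl at 2490 ± 384, so both siPERK groups lay between them. LPIN1, a phosphatidate phosphatase, differed by -0.68 and SCD, the stearoyl-CoA desaturase, by -0.48. MBTPS2, the site-2 protease that cuts SREBP and ATF6, was at 45.3, 59.7, 51.7 and 53.5 CPM with siPERK-1 and at 76.0, 76.7, 75.6 and 76.5 CPM with siPERK-3. It was below all 24 other libraries with siPERK-1 (direct -0.54 ± 0.06, adjusted p = 2.35e-08), and TM siCtrl stood at 75.4 ± 4.37 CPM. The part of MBTPS2 in the lipid gene differences was not tested.

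Cytosolic heat shock genes, which encode chaperones under control of HSF1, had 9 of 23 tested members lower with siPERK-1 (against 2.49% of all genes), 0 higher, and a median of -0.23. With the replicate block 14 were lower (against 4.51% of all genes), and with only the siPERK groups fitted 5. Leaving out replicate 1 or 4 of siPERK-1 gave 5 lower members, replicate 1 of siPERK-3 gave 3 and replicate 3 of siPERK-3 gave 4. HSPA1B was at 46.1, 32.6, 47.5 and 38.7 CPM with siPERK-1 and at 104, 73.1, 72.0 and 50.2 CPM with siPERK-3 (-0.86 ± 0.19, adjusted p = 0.00825). Its call was lost without replicate 1 of siPERK-3 (-0.66, adjusted p = 0.0509) and with only the siPERK groups fitted (adjusted p = 0.132), and it has a near-identical copy, so its counts are uncertain. HSP90AA1 was at 1074 ± 50.7 and 1405 ± 221 CPM (-0.39 ± 0.08, adjusted p = 0.00249), with overlapping groups. In TM siCtrl, HSPA1B stood at 23.9 ± 2.18 CPM, below both siPERK means. Over the list, 12 members were called higher than in TM siCtrl with siPERK-1 and 16 with siPERK-3 (13.1% of all genes in each). In each comparison 1 was called lower (against 13.3% and 13.7% of all genes), and the medians were 0.18 and 0.47.

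Of 12 tested NF-kB targets, 4 were lower with siPERK-1 (against 2.49% of all genes) and 0 higher, with a median of -0.23. With the replicate block 6 were lower (against 4.51% of all genes). With only the siPERK groups fitted, or without replicate 2 or 4 of siPERK-1 or replicate 1 or 2 of siPERK-3, 1 was lower. BIRC3, an inhibitor of apoptosis, was at 15.4, 10.2, 14.1 and 11.3 CPM with siPERK-1 and at 29.7, 23.7, 18.0 and 13.6 CPM with siPERK-3 (-0.73 ± 0.18, adjusted p = 0.0176), with overlapping groups. BIRC2 differed by -0.46 ± 0.06 (adjusted p = 5.28e-07) without overlap. Against TM siCtrl, BIRC3 changed by 0.60 with siPERK-1 and 1.32 with siPERK-3, and BIRC2 by -0.58 and -0.13. Over the list, 8 members were called higher than in TM siCtrl with siPERK-1 and 10 with siPERK-3 (13.1% of all genes in each). Called lower were 1 and 0 (against 13.3% and 13.7% of all genes), and the medians were 0.58 and 0.85.

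Cytosolic ribosomal protein genes were the list with the most members higher with siPERK-1: 15 of 61 were called higher (against 2.24% of all genes), 0 lower, and the median was 0.10. With the replicate block 27 were higher (against 3.84% of all genes), and with upper-quartile factors 25, with more of all genes called higher. Without replicate 3 of siPERK-1 7 were higher and without replicate 1 of siPERK-3 6, with fewer of all genes called higher. RPS20 was at 917, 866, 933 and 856 CPM with siPERK-1 and at 677, 733, 737 and 696 CPM with siPERK-3 (0.33 ± 0.04, adjusted p = 9.13e-07), and TM siCtrl stood at 850 ± 18.4 CPM. RPS6 was at 2698 ± 66.5 and 2241 ± 69.1 CPM (0.27 ± 0.04, adjusted p = 2.07e-06). RPL28 had the list's largest difference (0.37 ± 0.06). Its change against TM siCtrl passed the test with siPERK-1 (0.23) but not with siPERK-3 (-0.14). RPL28 overlaps MIR6805 in the annotation. Over the list, 19 members were called higher than in TM siCtrl with siPERK-1 and 4 with siPERK-3 (13.1% of all genes in each). Called lower were 0 and 9 (13.3% and 13.7% of all genes), and the medians were 0.07 and -0.03.

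In the lists of the ER stress response, the counts are set against 2.24% of all genes called higher and 2.49% called lower. Counts with the replicate block are set against 3.84% and 4.51%. Counts of 1 or 2 members are too few to describe their list. Of 21 stress sensors and eIF2 pathway genes, MBTPS2 (-0.54) and the eIF2B subunit EIF2B5 (-0.18) were lower with siPERK-1 and the transcription factor CREB3L2 (0.25) higher; EIF2B5 lost its call in 9 of 16 alternatives. Of 32 ER chaperones and folding enzymes, 2 were higher with siPERK-1, PDIA5 (0.28) and FKBP14 (0.28), and 0 lower. Without replicate 1 or 3 of siPERK-1, or replicate 1 or 4 of siPERK-3, 1 was higher, and with the replicate block 4 were higher and 1 lower. Of 23 genes of ER-associated degradation, the ubiquitin-conjugating enzyme UBE2G2 (-0.28) was the single one called. Of 36 N-glycosylation enzymes it was DPAGT1, the enzyme that tunicamycin inhibits, at 78.4 ± 4.44 CPM with siPERK-1 and 95.6 ± 6.4 with siPERK-3 (-0.29 ± 0.06, adjusted p = 0.00144). Of 45 secretory transport genes, SEC23A (-0.49), a coat protein of vesicles leaving the ER, and COPG1 (-0.17) were lower, and with the replicate block 8 were lower. Among 26 interferon-stimulated genes, which double-stranded RNA can induce, edgeR, DESeq2 and limma-voom called 0 (2 lower at an unadjusted p under 0.05), with a median of 0.00. In 6 of 16 alternatives, the replicate block among them, 1 was lower. Of 19 genes of RNA interference and double-stranded RNA sensing, XPO5 (-0.23) and TNRC6B (-0.25) were lower. XPO5 had overlapping groups and lost its call in 7 of 16 alternatives.

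**Figure D5:**
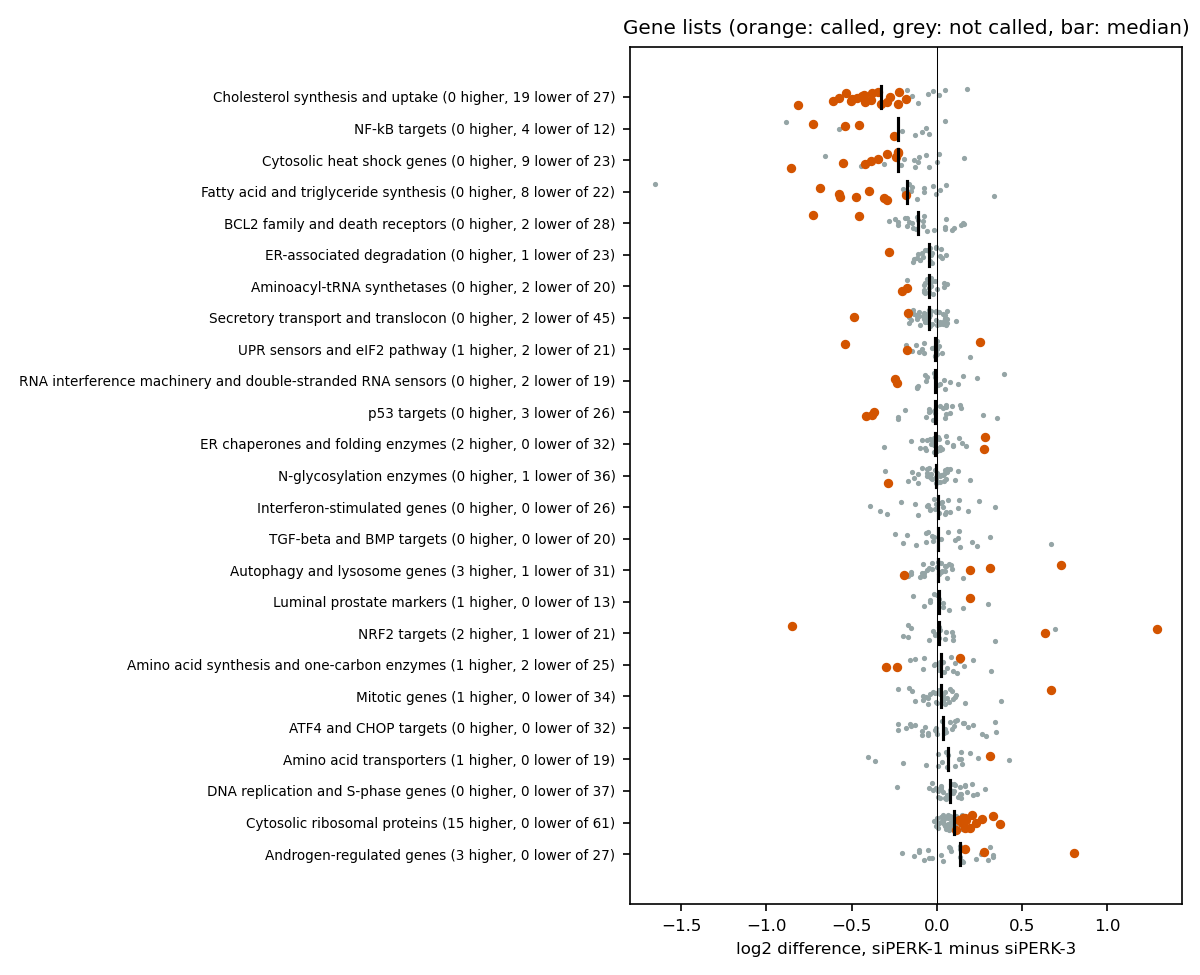
Log2 difference between the siRNAs for each tested member of the lists with at least 10 tested members, ordered by median (black bar), with called members in orange. The cholesterol list lies lowest (median -0.33, 19 of 27 called) and the ribosomal list shows 15 called members, all to the right of 0.

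Gene groups defined by comparisons between the other groups of libraries gave a further view. The siPERK libraries still entered the filter, the scaling and the spread of the shared fit. Of 565 genes lowered at least 2-fold by both ATF4 siRNAs, 27 were higher with siPERK-1 (4.78%) and 3 lower (0.531%), against 2.24% and 2.49% of all genes. Their median was 0.11, and 401 of them lay above 0 (71%). AKR1C2, a steroid-inactivating reductase, was at 5.29, 4.30, 5.90 and 4.79 CPM with siPERK-1 and at 1.69, 1.70, 2.40 and 2.45 CPM with siPERK-3 (1.29 ± 0.21, adjusted p = 7.52e-05). TM siCtrl stood at 5.88 ± 0.83 CPM, and AKR1C2 shares near-identical sequence with its paralogs. STK32A, a kinase gene, was at 8.18 ± 1.78 and 4.19 ± 1.16 CPM (0.98 ± 0.18, adjusted p = 0.000752) and at 12.9 ± 1.26 in TM siCtrl. Of 1215 genes raised at least 2-fold by tunicamycin, 42 were higher (3.46%) and 28 lower (2.3%), with a median of 0.03. Of 1041 genes lowered at least 2-fold by tunicamycin, 24 were higher (2.31%) and 17 lower (1.63%), also with a median of 0.03. Of 195 genes raised at least 2-fold by both ATF4 siRNAs, 2 were higher (1.03%) and 3 lower (1.54%), with a median of -0.01. Of 384 genes raised at least 1.5-fold by the PERK inhibitor, 8 were higher (2.08%) and 12 lower (3.12%), with a median of 0.03. Of 549 genes lowered at least 1.5-fold by the PERK inhibitor, 16 were higher (2.91%) and 12 lower (2.19%), with a median of -0.03.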

How the data were processed

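RNA sequencing used strand-specific library preparation, per the labels' protocols. The deposited values are read counts per gene; TopHat2 2.1.0, featureCounts 1.5.0-p1, DESeq2 1.10.1 and hg19 are named in the submitters' processing notes. The 6 tables were joined by gene symbol (25369 genes; 0 columns of samples outside the series; 1 line without a gene name held 0 counts). TM siCtrl columns repeated between tables with 0 differing values. All 28 libraries were fitted together with edgeR 4.0.16 in R 4.3.3 (TMM factors, filterByExpr at 10 counts per library and 15 in total, robust quasi-likelihood F-test). P-values were Benjamini-Hochberg adjusted over 14314 genes, and genes under 0.05 were called. SEs were derived from the F statistic and the log2 change. The fit was tested on simulated data.

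The series' design text names independent experiments without saying that the replicate numbers mark them. Same-numbered siPERK-1 and siPERK-3 libraries deviated together over 12335 genes (correlations 0.15 to 0.43 for 4 pairs, against -0.25 to 0.09 for other pairs). Named genes were EIF2AK3, ATF4, DDIT3 and FAM129A, the 12 most changed in each direction without overlap (mean log2 CPM from 1 upwards), and up to 4 called members per list; genes of the 4 groups outside all other libraries were added later. The gene lists and members were chosen with earlier results of these data known. Some genes are not reported here by name. Alternatives were RLE and upper-quartile factors, no filter, DESeq2 1.42.0, limma-voom 3.58.1, only the compared groups, the replicate block and leaving out each replicate; leaving out both siPERK libraries numbered 4 was chosen after seeing the data.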

Additional observations from a re-analysis of the deposited data

Results flagged for a closer look

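Among 194 groups of 4 libraries (97 named genes with either siRNA), 10 held a library whose gap to the nearest other library relative to the group's range exceeded Dixon's 95% critical value; chance flags about 1 in 20 groups. With siPERK-1, replicate 4 was low for CCDC25 (71.7 CPM) and high for LSS (132 CPM). Replicate 1 stood apart for SESN1 (39.7 CPM) and MYADM (167 CPM), and replicate 3 for NRAS (120.5 CPM). With siPERK-3, replicate 1 stood apart for SLC13A3 (3.89 CPM) and MAP3K9 (22.3 CPM). Replicate 4 stood apart for IARS (682 CPM), SORD (525 CPM) and FAM49B (30.8 CPM).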

How the results depend on the processing

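Of 93 called named genes, 58 kept their call in each of 16 alternatives and 35 lost it in at least 1. With the replicate block, 550 genes were higher with siPERK-1 and 645 lower, and the call of EIF2AK3 between the siRNAs was still missed (adjusted p = 0.0907). With upper-quartile factors, 23 genes had siPERK-1 above all other libraries and were called, against 12. Leaving out 1 library at a time gave 180 to 286 higher and 211 to 341 lower genes. It gave 37 to 63 called genes with siPERK-1 below all others, 7 to 20 with siPERK-1 above, and 17 to 34 with siPERK-3 above. The lowest and highest siPERK-1-above counts came without replicate 3 of siPERK-3 and without replicate 4 of siPERK-1. DDIT3, at -0.05, ranged from -0.13 without replicate 4 of siPERK-3 to 0.0097 without its replicate 3 (adjusted p = 0.991); the cause was not tested. Without both siPERK libraries numbered 4, 230 genes were higher and 272 lower, and 16 cholesterol members were lower. Over the alternatives 13 to 20 cholesterol members were lower and 0 higher, 7 to 9 fatty acid members lower, 3 to 14 heat shock members lower, 1 to 6 NF-kB members lower, and 6 to 27 ribosomal members higher and 0 lower. Low counts limit, among others, SYP, AKR1C2, ZMYM6NB, STK32A, ST6GAL1, LAMP3 and TNFAIP3, all with means under 10 CPM with either siRNA.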

Other observations

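Of 26 tested p53 targets, 3 were lower with siPERK-1 than with siPERK-3 (against 2.49% of all genes) and 0 higher (1 with the replicate block): the nucleotide excision repair factor XPC (-0.37 ± 0.06), the stress-induced mTORC1 inhibitor SESN1 (-0.38 ± 0.07) and TP53INP1 (-0.42 ± 0.08). XPC was at 76.6 ± 4.32 CPM with siPERK-1, 99.0 ± 6.46 with siPERK-3 and 155 ± 6.13 in TM siCtrl (SD, n = 4), so both siRNAs lay below the control. Of 31 autophagy and lysosome genes, LAMP3 (0.73), WIPI2 (0.31) and BECN1 (0.19) were higher and NBR1 (-0.19) lower (against 2.24% and 2.49% of all genes). LAMP3 lost its call in 8 of 16 alternatives, NBR1 in 7 and BECN1 in 5. The groups overlapped for LAMP3 and BECN1. Exons of BECN1 overlap CNTD1 in the annotation, so its counts are uncertain. Of 27 androgen-regulated genes, HPGD, ABCC4 (0.28) and SORD (0.16) were higher (against 2.24% of all genes) and 0 lower. With the replicate block 4 were higher and 1 lower (against 3.84% and 4.51% of all genes), and SORD lost its call in 5 of 16 alternatives.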
